A study of Homo sapiens with 8 samples.

Results

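The lncRNA response of LM3 cells to JQ1 was taken from 4 libraries, 2 of cells given the DMSO vehicle and 2 of cells given JQ1. Every locus of the LM3 table was used that carried values and averaged 0.5 FPKM or more across the 4 libraries (FPKM are fragment counts scaled for length and sequencing depth). This gave 6474 loci of the 15469 with values. LM3 is a human hepatocellular carcinoma cell line, and the labels list no genetic change and neither dose nor duration of JQ1 for any group. The study also treated HepG2, a second liver cancer line, in the same design, which makes 8 libraries in all. Total RNA was depleted of ribosomal RNA and sequenced in read pairs. Nothing in the labels ties the replicates to separate cultures, so the p-values reflect only how these libraries scatter, and that scatter may be technical.

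JQ1 is a small molecule that occupies the bromodomains of the BET protein family and so keeps these proteins from binding acetylated histones. Genes near super-enhancers, the clustered enhancers that the study's title names, are known to be sensitive to such compounds. LncRNAs are transcripts with little or no coding capacity. They include nuclear scaffolds, hosts of microRNAs and of small nucleolar RNAs (snoRNAs), transcripts antisense to coding genes, and transcripts that start back to back with a coding gene at a shared promoter.

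The FPKM summed to between 34066 and 35742 per library, and 11230 to 12332 loci were above 0. Loci of ribosomal and mitochondrial RNA took up 18.9% and 19.6% of it with vehicle and 21.2% and 22.8% with JQ1. Across loci, Pearson's r was 0.976 between the vehicle libraries, 0.961 between the JQ1 libraries and 0.896 to 0.911 between a vehicle and a JQ1 library. The liver origin could not be checked on coding genes, since 0 of 10 coding markers had values. Of 13 hepatocyte lncRNAs with values, 8 averaged under 0.1 FPKM, and HNF4A-AS1, antisense to a master regulator of hepatocytes, was at 0 in all 4 libraries. The summed level of these 13 was 7.33 and 7.09 FPKM with vehicle and 3.51 and 4.21 FPKM with JQ1. Most of it was AGAP2-AS1, which is not specific to liver, at 5.06 and 4.37 FPKM with vehicle and 2.05 and 2.80 FPKM with JQ1. Of 17 lncRNAs listed for other cell types, 11 averaged under 0.1 FPKM and the immune-cell RNA MIR142HG was at 0 throughout. Their sum was 93.5 and 90.4 FPKM with vehicle and 61.9 and 59.9 FPKM with JQ1. Most of this sum was CYTOR, which many carcinoma lines express, and its part in other results was not tested.

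With JQ1, more lncRNA loci fell than rose in LM3. The question was which loci moved and by how much. In limma on log2(FPKM + 0.5), 1511 of the 6474 loci (23.3%) passed an adjusted p of 0.05, with 513 higher (7.92%) and 998 lower (15.4%). Without adjustment, 2607 loci had a p under 0.05, 964 higher and 1643 lower. The median log2 fold change was 0.67 among the rises, -0.79 among the falls and -0.08 over all loci tested. A change of the mean FPKM by at least 2-fold was seen for 221 rises and 587 falls, and by at least 4-fold for 52 and 123. All 1511 called loci had both JQ1 libraries on the same side of both vehicle libraries, a pattern that 66.7% of all tested loci showed. The rises were 34.0% of the calls, but 47.6% once the libraries were centred to a common median (700 rises, 770 falls) and 49.4% (715 and 732) after quantile normalization. With either LM3 library of a group left out, limma made 0 calls, while 1605 to 2366 of all loci had an unadjusted p under 0.05. All 1511 calls kept their direction in those fits, as groups that do not overlap must, so this is no further support. When the spread was estimated from the libraries of both lines, 1146 to 1292 of the 1511 calls remained without each LM3 library in turn. In bulk RNA, less transcript per cell and fewer cells with the transcript cannot be told apart.

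**Figure D1:**
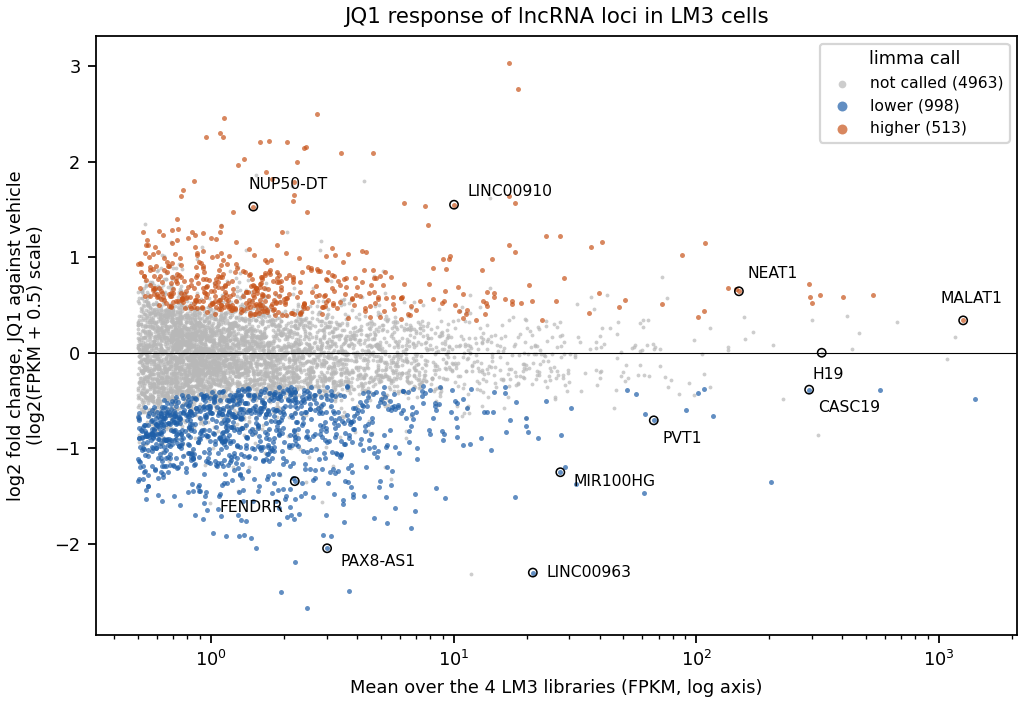
Each point is 1 of the 6474 loci tested, with its mean FPKM over the 4 LM3 libraries on a log axis and its log2 fold change with JQ1, called higher (513, orange), called lower (998, blue) or not called (grey). LINC00963 stands out as a well-expressed locus with a log2 fold change of -2.30, and H19 lies on the zero line.

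LINC00963, an lncRNA studied in prostate and liver cancer, had the largest fall in log2 fold change among named loci with a gene symbol. By the ratio of mean FPKM, LINC00670 (0.146) and PAX8-AS1 (0.169) fell by more than LINC00963 (0.192). LINC00963 stood at 35.1 and 36.1 FPKM in the vehicle libraries and at 6.96 and 6.69 FPKM in the JQ1 libraries. Both JQ1 values were thus about the same and far below either vehicle value (ENSG00000204054, chr9:129476946-129513687, plus strand of GRCh38; log2 fold change -2.30, SE 0.08, adjusted p = 0.00443). PAX8-AS1 (ENSG00000189223) overlaps PAX8, a transcription factor gene of thyroid and kidney, on the opposite strand. It was at 5.39 and 4.91 FPKM with vehicle and at 0.96 and 0.78 FPKM with JQ1, again without overlap (log2 fold change -2.05, SE 0.11, adjusted p = 0.00533). FENDRR, which starts next to FOXF1, a mesoderm and lung transcription factor gene, was at 3.35 and 3.44 FPKM with vehicle and 1.02 and 1.05 FPKM with JQ1 (ENSG00000268388; log2 fold change -1.34, adjusted p = 0.00565). Its replicates differed far less from each other than the groups did. Groups without overlap were a condition of the choice for LINC00963, PAX8-AS1 and FENDRR.

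In the opposite direction, LINC00910 had the largest rise in log2 fold change among named loci with a symbol. It went from 4.69 and 5.04 FPKM with vehicle to 14.97 and 15.5 FPKM with JQ1 (ENSG00000188825, chr17:43338741-43389199, minus strand; log2 fold change 1.55, SE 0.08, adjusted p = 0.00533). The JQ1 libraries were both about 3 times the vehicle level (ratio of means 3.13). By that ratio, NUP50-DT (4.59), HNRNPD-DT (4.06) and CD27-AS1 (3.26) rose by more. The promoters of LINC00963, PAX8-AS1, FENDRR and LINC00910 are printed because these loci have the smallest p among named loci with a RefSeq promoter entry (GRCh38.p14, 300 bases, 5′ to 3′ on the strand of the gene). They lie at chr9:129488410-129488709 (LINC00963, plus strand), chr2:113235277-113235576 (PAX8-AS1, plus), chr16:86508811-86509110 (FENDRR, minus) and chr17:43388849-43389148 (LINC00910, minus). The RefSeq starts of LINC00963 and PAX8-AS1 lie 11714 and 24106 bases inside the loci of the table, so other starts of these loci are not shown. Capitals mark matches on either strand to GGGCGG (the GC box), to TGANTCA (the AP-1 element) or to TATAAA (the TATA box).
LINC00963: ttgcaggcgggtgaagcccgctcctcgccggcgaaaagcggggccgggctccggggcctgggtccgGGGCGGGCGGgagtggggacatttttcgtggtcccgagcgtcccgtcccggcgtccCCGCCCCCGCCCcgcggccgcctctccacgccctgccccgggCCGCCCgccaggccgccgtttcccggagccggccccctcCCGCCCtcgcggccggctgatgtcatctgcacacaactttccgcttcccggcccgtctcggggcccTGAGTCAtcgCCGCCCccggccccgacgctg
PAX8-AS1: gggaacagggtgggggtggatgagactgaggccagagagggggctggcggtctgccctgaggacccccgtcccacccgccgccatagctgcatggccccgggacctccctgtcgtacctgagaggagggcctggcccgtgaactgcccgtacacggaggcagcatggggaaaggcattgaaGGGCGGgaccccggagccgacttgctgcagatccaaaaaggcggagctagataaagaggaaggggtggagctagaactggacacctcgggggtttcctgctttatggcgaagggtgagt
FENDRR: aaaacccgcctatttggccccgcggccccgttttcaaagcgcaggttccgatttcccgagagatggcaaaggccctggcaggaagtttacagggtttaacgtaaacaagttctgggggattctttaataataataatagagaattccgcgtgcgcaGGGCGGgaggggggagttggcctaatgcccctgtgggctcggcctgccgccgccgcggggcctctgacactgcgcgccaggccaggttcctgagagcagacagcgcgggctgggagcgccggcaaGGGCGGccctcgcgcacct
LINC00910: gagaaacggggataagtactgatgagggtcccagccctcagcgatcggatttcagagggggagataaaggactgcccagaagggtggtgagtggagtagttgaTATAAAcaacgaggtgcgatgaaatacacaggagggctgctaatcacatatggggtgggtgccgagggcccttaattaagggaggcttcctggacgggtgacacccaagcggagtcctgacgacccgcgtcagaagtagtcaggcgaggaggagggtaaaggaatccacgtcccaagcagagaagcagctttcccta

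The LINC00963 promoter holds 7 matches to GGGCGG, those of PAX8-AS1 and FENDRR hold 1 and 2, and that of LINC00910 holds TATAAA at position -147 from its start and no GGGCGG. GC content was 78% for LINC00963, 64.3% for PAX8-AS1, 62.3% for FENDRR and 55% for LINC00910. Of the 2063 tested Ensembl loci, 703 matched a promoter entry by symbol, 35 of them called higher and 145 called lower. GGGCGG was present in 74.3% of the promoters of the rises and 57.2% of those of the falls, against 59.2% of the 703 and 45% of all 35116 promoters of that length. CACGTG, the sequence that MYC and related factors recognise, was in 7 of 35 promoters of the rises (20%) and 10 of 145 of the falls (6.9%), against 62 of the 703 (8.82%) and 7.26% of all promoters. CCAAT was in 45.7% and 26.9%, against 37.6% of the 703 and 34.6% of all. TATAAA was in 11.4% and 5.52%, against 8.11% and 11.5%. Matches on both strands were counted, none of the shares was tested, and a match is only a description of these letters. The shares of CCGGAAG were 11.4% and 10.3% (13.4% of the 703, 10.3% of all), and those of TGANTCA 8.57% and 11% (7.4% and 7.71%). TGACGTCA was in 1 and 3 promoters (2.86% and 2.07%, against 2.84% and 1.85%), and the longer YY1 sequence in 0 of 35 and 0 of 145, against 9 of the 703.

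Further large falls were of several kinds. SBF2-AS1, antisense to SBF2, was at 9.69 and 8.17 FPKM with vehicle and 2.65 and 2.43 FPKM with JQ1 (log2 fold change -1.63, adjusted p = 0.00657). DLGAP1-AS1 was at 13.2 and 11.8 FPKM with vehicle and 4.69 and 4.08 FPKM with JQ1 (-1.41, adjusted p = 0.00763). LINC01270, whose nearest coding gene is CEBPB, a liver transcription factor gene, was at 4.84 and 5.09 FPKM against 1.30 and 1.65 FPKM (-1.47, adjusted p = 0.00784). In each of these the JQ1 libraries lay below the vehicle libraries by more than either pair differed. Groups without overlap were a condition of the choice. The antisense loci CEACAM16-AS1 (log2 fold change -1.53) and BASP1-AS1 (-1.31) fell as well. So did NTRAS, near the mitotic kinase gene NEK2 (-1.55), LINC02747, near MYEOV (-1.50), LINC01186 on the X chromosome (-1.35) and LINC00670 (-1.76). Of the 14 largest falls with a symbol, ZFAND2A-DT was the only divergent transcript (-1.29). Another 6 lay over 5 kb from any coding gene, 5 were antisense and 2 lay within 5 kb.

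The 14 largest rises had another makeup, with 9 that start within 1 kb of a coding gene on the opposite strand. NUP50-DT shares its promoter region with NUP50, a nuclear pore protein gene, and was at 0.37 and 0.70 FPKM with vehicle and 2.33 and 2.58 FPKM with JQ1 (log2 fold change 1.53, adjusted p = 0.0126). HNRNPD-DT, beside the gene of the RNA-binding protein AUF1, was at 0.41 and 0.45 FPKM against 1.95 and 1.54 FPKM (1.27, adjusted p = 0.0104). RPAP3-DT, beside a gene for assembly of RNA polymerase II, was at 1.80 and 2.14 FPKM against 4.67 and 4.39 FPKM (1.03, adjusted p = 0.0105). ASB16-AS1, whose start is divergent from TMUB2, was at 5.69 and 6.82 FPKM with vehicle and at 12.9 and 13.3 FPKM with JQ1 (1.01, adjusted p = 0.0113). The JQ1 values of all 4 loci were above every vehicle value, as the choice required, and 3 of the 4 stayed under 5 FPKM. CD27-AS1 (1.03), NUDT19-DT (1.01), FLJ20021 beside the calcineurin gene PPP3CA (0.94), RASSF10-DT (0.83) and NDUFA6-DT beside a respiratory complex I gene (0.82) were the other 5 divergent loci. LINC02804 (0.86) and C2orf27A (0.86) lay over 5 kb from a coding gene and LINC02936 (0.80) within 5 kb. ADAMTSL4-AS1 (0.81) overlaps MCL1, an anti-apoptotic gene, on the same strand, so reads of the 2 genes may be mixed. Among all 792 divergent loci, 42 were called higher (5.3%) and 121 lower (15.3%), against 7.92% and 15.4% of all loci. Falls thus outnumbered rises in the class, as they did over all loci.

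**Figure D2:**
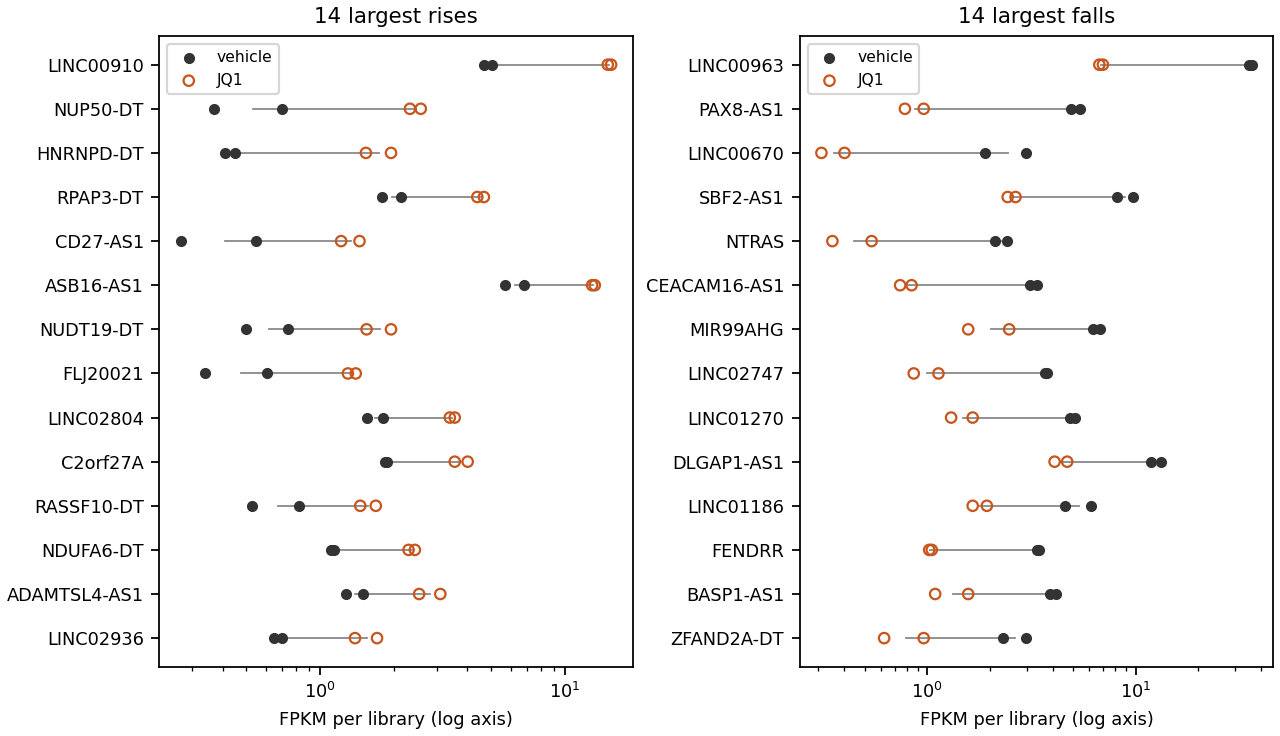
FPKM of each LM3 library on a log axis for the 14 largest rises (left) and 14 largest falls (right) with a gene symbol, vehicle as filled and JQ1 as open circles, joined at the means. Loci with overlapping groups were not eligible, so the gap between the groups is part of the choice, and the falls reach from 36.1 FPKM (LINC00963, vehicle) down to under 1 FPKM.

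The most abundant lncRNAs changed in both directions, by log2 fold changes of 0.34 to 0.64 for the 8 rises and, LINC00963 included, of -2.30 to -0.38 for the 8 falls. MALAT1, an RNA of nuclear speckles and the most abundant locus with a symbol, was at 1117 and 1104 FPKM with vehicle and 1472 and 1341 FPKM with JQ1 (log2 fold change 0.34, adjusted p = 0.0491). NEAT1, the scaffold of paraspeckles, was at 114.9 and 118.7 FPKM against 185.8 and 180 FPKM (0.64, adjusted p = 0.0122). Both RNAs were higher in each JQ1 library than in each vehicle library, as the choice required. The MALAT1 call was lost under several settings, among them a pseudocount of 1 (adjusted p = 0.0537), without the filter on low values (0.0921), after quantile normalization (0.0678) and without trend or robust fitting (0.0809). The snoRNA hosts SNHG1 (0.43), SNHG7 (0.51) and SNHG12 (0.47) rose, though SNHG1 lost its call after quantile normalization (0.0699) and without the filter (0.0569). Also called higher were DUXAP8 (0.54), THUMPD3-AS1 (0.52) and LINC02693 (0.51), which with SNHG7 lost their calls without the filter (adjusted p of 0.0507 to 0.0596). PVT1, the neighbour of MYC, was at 81.8 and 84.1 FPKM with vehicle and 50.5 and 50.8 FPKM with JQ1 (-0.71, adjusted p = 0.011). MIR100HG was at 38.04 and 39.8 FPKM against 15.2 and 17.0 FPKM (-1.25, adjusted p = 0.00734), and SNHG26 at 25.5 and 26.4 FPKM against 14.95 and 13.9 FPKM (-0.83, adjusted p = 0.0104). The groups of these 3 did not overlap, which was a condition of the choice. CYTOR (-0.64) and MIR4435-2HG (-0.60), which are near-identical copies whose reads may be exchanged, fell too. CASC19 at 8q24 (-0.39) and SNHG17 (-0.38) passed narrowly, with adjusted p of 0.0355 and 0.0334, and lost their calls with centred libraries (0.0523 and 0.0545). H19, an imprinted RNA of fetal liver and liver cancer, was at 310.2 and 347.1 FPKM with vehicle and 348.1 and 309.7 FPKM with JQ1, and was not called (log2 fold change 0.00084, adjusted p = 0.995). Its 2 groups covered nearly the same range.

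LncRNAs reported at super-enhancers in any cancer or cell type mostly fell. Of 21 tested, 12 fell (57.1%, against 15.4% of all loci), 2 rose and 7 were not called, with a median log2 fold change of -0.58 against -0.08 over all loci. Besides LINC00963, FENDRR, MIR100HG and PVT1, the falls included TM4SF1-AS1, which starts beside the cell surface gene TM4SF1. It was at 1.68 and 1.64 FPKM with vehicle and at 0.44 and 0.50 FPKM with JQ1 (-1.16, adjusted p = 0.00886). SLC16A1-AS1, antisense to a lactate transporter gene, was at 12.8 and 13.5 FPKM against 7.75 and 7.17 FPKM (-0.77), and LINC01503 at 3.93 and 4.41 FPKM against 2.61 and 2.45 FPKM (-0.62). The 2 that rose were NEAT1 and MALAT1. The list names what is reported in other cells but was drawn up with earlier results of these data known, so it is no independent evidence of a direction. Whether its members lie at super-enhancers in LM3 was not measured. The lists below were likewise drawn up with earlier results of these data known.

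Hosts of microRNAs carry microRNA precursors within their transcripts. Of 25 tested, 5 fell, 1 rose and 19 were not called (median -0.25), so the share called was 24%, near the 23.3% of all loci. Both hosts of the miR-99/100, let-7 and miR-125b clusters fell, MIR100HG as given above and MIR99AHG from 6.25 and 6.77 FPKM with vehicle to 1.57 and 2.47 FPKM with JQ1 (-1.50, adjusted p = 0.015). MIR34AHG, host of a p53-induced microRNA, was at 1.72 and 1.62 FPKM against 0.82 and 0.58 FPKM (-0.86, adjusted p = 0.02). In both the JQ1 libraries differed from each other by more than the vehicle libraries did. The groups did not overlap, as in every called locus. MIR1915HG fell (-0.44) as did MIR4435-2HG. MIRLET7BHG, which hosts other let-7 members, was at 11.1 and 11.4 FPKM with vehicle and 17.3 and 14.9 FPKM with JQ1 and rose (0.49, adjusted p = 0.038). MIR17HG, host of the oncogenic miR-17-92 cluster, was at 12.9 and 14.4 FPKM against 10.5 and 7.99 FPKM and was not called (-0.55, adjusted p = 0.0703). The main mature microRNAs of the 3 hosts are printed from RefSeq to show what these transcripts encode, with the seed, bases 2 to 8, in capitals. The first 3 belong to MIR100HG, the next 2 with miR-125b-5p again to MIR99AHG, and the last to MIR34AHG.
miR-100-5p: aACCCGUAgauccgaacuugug
let-7a-5p: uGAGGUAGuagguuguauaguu
miR-125b-5p: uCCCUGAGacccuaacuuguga
miR-99a-5p: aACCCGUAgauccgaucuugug
let-7c-5p: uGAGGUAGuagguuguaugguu
miR-34a-5p: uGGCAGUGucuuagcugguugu

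The 2 clusters thus encode the same seeds, with ACCCGUA shared by miR-100-5p and miR-99a-5p, GAGGUAG by let-7a-5p and let-7c-5p, and 1 miR-125b-5p sequence from both. MicroRNA levels were not measured, and a host's level need not follow that of its microRNAs.

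Of 29 snoRNA hosts, 3 rose and 3 fell (median -0.13), 20.7% against the 23.3% of all loci called. SNHG20 fell from 8.33 and 8.65 FPKM with vehicle to 4.92 and 5.18 FPKM with JQ1 (-0.70, adjusted p = 0.0123), and SNHG26 and SNHG17 were the other falls. GAS5, a growth-arrest RNA, was not called at 200.1 and 201.9 FPKM against 222.8 and 204.6 FPKM. Among 16 RNAs with nuclear or housekeeping roles, limma called 4 rises and 0 falls (4 and 0 by centring or rescaling too), 25% higher against 7.92% of all loci, namely MALAT1, NEAT1, SNHG1 and THUMPD3-AS1. The list median was -0.02, turning positive under each other scaling tried (0.0054 to 0.063), and after quantile normalization 2 were called. Others of the list stayed uncalled, among them TUG1 at 32.1, 31.97, 32.5 and 29.6 FPKM and NORAD, a sink of Pumilio proteins, at 73.95, 74.9, 69.96 and 65.5 FPKM in vehicle 1, vehicle 2, JQ1 1 and JQ1 2. RMRP, the RNA of a ribonuclease, was at 67.3 and 268.2 FPKM in the vehicle libraries and so differed more within a group than its group means did.

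LncRNAs tied to stress and cell fate moved in several directions. Of 8 p53-responsive lncRNAs, TP53TG1 and NEAT1 rose and PVT1 and MIR34AHG fell (25% each way, against 7.92% higher and 15.4% lower of all loci; median -0.02, positive under each other scaling tried). TP53TG1 was at 1.26 and 1.17 FPKM with vehicle and 2 and 1.89 FPKM with JQ1 (0.51, adjusted p = 0.0266), with little spread in either group. Of 16 MYC-linked lncRNAs, SNHG12 rose and PVT1, CASC19, SNHG17 and LINC01311 fell (25% lower against 15.4% of all loci; median -0.21). Only 2 of these 4 falls were called with centred libraries. Of 16 hypoxia and stress lncRNAs, 5 fell (31.2%, against 15.4% of all loci) and 2 rose (12.5%, against 7.92%), with a median of -0.20. LUCAT1, induced by oxidative stress, was at 2.29 and 2.36 FPKM with vehicle and 0.80 and 1 FPKM with JQ1 (-1.02, adjusted p = 0.011). UCA1, a bladder cancer RNA, was at 3.31 and 3.29 FPKM against 2.05 and 2.23 FPKM (-0.53, adjusted p = 0.0239), and LINC01116 at 4.6 and 4.62 FPKM against 2.26 and 1.69 FPKM (-1.06, adjusted p = 0.0148). The groups did not overlap in any of these, as in every called locus.

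Of 12 inflammatory and interferon lncRNAs, 6 fell (50%, against 15.4% of all loci) and 1 rose (8.33%, against 7.92%), with a median of -0.38 against -0.08. The falls included NKILA, an inhibitor of NF-kappaB signalling, at 1.06 and 1.23 FPKM with vehicle and 0.56 and 0.55 FPKM with JQ1 (-0.64, adjusted p = 0.0257), and NRAV, a regulator of interferon-stimulated genes, at 11.8 and 12.1 FPKM against 7.89 and 8.71 FPKM (-0.50, adjusted p = 0.0263). IRF1-AS1, beside the interferon regulator gene IRF1, was at 0.98 and 0.87 FPKM against 0.32 and 0.37 FPKM (-0.75, adjusted p = 0.024). LINC00910, the 1 that rose, and CCDC18-AS1, another fall (-0.73), have no established inflammatory role. The falls LUCAT1 and UCA1 also count among the hypoxia and stress lncRNAs. This list too is no independent evidence of a direction. HCP5, in the MHC region, was not called at 7.09 and 7.24 FPKM against 11.8 and 8.53 FPKM (adjusted p = 0.123).

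LncRNAs of the HOX clusters, which lie among the homeobox genes of body patterning, had 4 falls and no rise in limma among 12, 33.3% lower against 15.4% of all loci (median -0.55 against -0.08). HOXA10-AS was at 1.81 and 1.83 FPKM with vehicle and 0.63 and 0.44 FPKM with JQ1 (-1.17, adjusted p = 0.0111), and HOTAIRM1 at 16.6 and 15.8 FPKM against 10.3 and 10.6 FPKM (-0.62, adjusted p = 0.0145). HOXD-AS2 (-0.50) and HOXC-AS3 (-0.80) fell as well. HOXA11-AS went the other way, at 6.67 and 6.24 FPKM against 8.11 and 8.07 FPKM. It was not called (0.31, adjusted p = 0.0657), and it became the 1 rise of the list with centred libraries and after quantile normalization. HOTAIR, which binds the Polycomb complex, was at 2.06 and 0.98 FPKM against 0.49 and 1.22 FPKM and its groups overlapped.

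Lists named for liver cancer gave no single direction. Of 38 lncRNAs that reports tie to growth of this carcinoma, 6 rose, 10 fell and 22 were not called (median -0.15), which makes 15.8% higher and 26.3% lower against 7.92% and 15.4% of all loci. HEIH, named for high expression in this cancer, was at 4.97 and 5 FPKM with vehicle and 3.08 and 2.29 FPKM with JQ1 (-0.80, adjusted p = 0.0289). MCM3AP-AS1 was at 5.66 and 6.25 FPKM against 4.36 and 3.87 FPKM (-0.48, adjusted p = 0.0388). HULC, named for its high expression in liver cancer, was at 0.61, 0.50, 0.58 and 0.54 FPKM in the order vehicle 1 and 2, JQ1 1 and 2, and was not called. Of 10 tumour-suppressive lncRNAs, FENDRR, NKILA and LINC01089 fell and none rose by limma (median -0.25; 30% lower against 15.4% of all loci), while 1 member was called higher under each other scaling tried, with LINC01089 at 12.9 and 12.8 FPKM against 9.71 and 8.43 FPKM (-0.48). The LINC01089 call was lost with centred libraries (adjusted p = 0.0511). The 3 tested hepatocyte lncRNAs were HULC, CPS1-IT1 and AGAP2-AS1, of which the last is not specific to liver. Of these, 66.7% were called lower, against 15.4% of all loci. CPS1-IT1, inside the urea cycle gene CPS1, was at 1.34 and 1.41 FPKM against 0.41 and 0.26 FPKM (-1.17, adjusted p = 0.0119), and AGAP2-AS1 at 5.06 and 4.37 FPKM against 2.05 and 2.80 FPKM (-0.84, adjusted p = 0.0323), a call lost after quantile normalization. Reads of CPS1 itself may enter the CPS1-IT1 value, since it lies on the same strand. Of 5 tested lncRNAs listed for other cell types, FENDRR, CYTOR and LINC01116 fell (60% lower, against 15.4% of all loci). MIR503HG (7.29 and 7.22 against 7.57 and 9.13 FPKM) and LINC00926 were not called. Both cell type lists have too few tested members to describe a cell type. No imprinted lncRNA of 5 was called by limma, against 23.3% of all loci. Of these 5, 1 was under an unadjusted p of 0.05, MEG8 (-0.48, unadjusted p = 0.0385).

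What the called loci shared was then described by class, without a test. Over all loci, 15.4% were called lower and 7.92% higher. Loci under 1 kb fell least often. Of loci over 50 kb, 137 of 636 fell (21.5%) and 31 rose (4.87%), with a median of -0.21, while of loci under 1 kb, 133 of 1482 fell (8.97%) and 107 rose (7.22%), with a median of -0.03. The shares lower were 28.6% and 9.18% among loci with an LXLOC name, which is no Ensembl identifier, and 17.3% and 8.33% among Ensembl loci. Above 1 kb the share of Ensembl loci that fell did not rise with length, with 17.9% at 1 to 10 kb and 16.8% at 10 to 50 kb. Loci over 5 kb from any coding gene were called most often, with 189 rises and 385 falls of 1974 (29.1%, against 23.3% of all loci). Loci within 5 kb had 70 rises and 78 falls of 743 (9.42% and 10.5%) and a median of 0.0012. This balance turned to 97 and 59 with centred libraries, 99 and 57 after quantile normalization and 84 and 65 with rescaling. Of the LXLOC loci among them 62 rose and 49 fell. Another 445 loci could not be placed against a coding gene, since their sequence held none in the annotation or they had no strand. They had 39 rises and 35 falls (8.76% and 7.87%). Antisense loci had 64 rises and 163 falls of 1015 (6.31% and 16.1%), near the shares of all loci. Of 347 loci named -AS, 73 fell (21%) and 9 rose (2.59%), and of 230 LINC loci, 48 fell (20.9%) and 17 rose (7.39%). Abundant loci showed no excess of falls. Of 194 loci at 20 FPKM or more, 28 rose (14.4%) and 22 fell (11.3%), against 145 rises (5.66%) and 336 falls (13.1%) of 2563 at 0.5 to 1 FPKM.

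**Figure D3:**
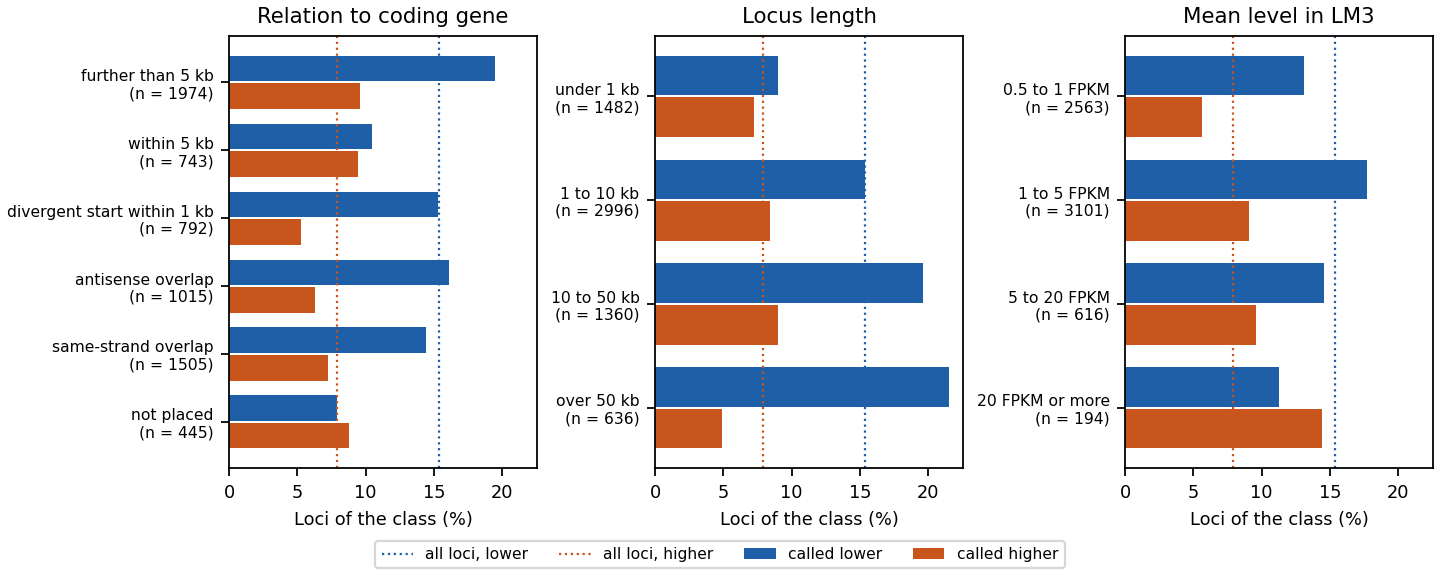
Share of tested loci in each class that was called lower (blue) or higher (orange) with JQ1 in LM3, by relation to the nearest coding gene, locus length and mean FPKM, with dotted lines at the shares over all loci (15.4% and 7.92%). The share of falls rises with length from 8.97% to 21.5%. Rises outnumber falls at 20 FPKM or more and among loci not placed against a coding gene.

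By chromosome, rises outnumbered falls on chromosome 6, with 34 and 23 of 239 (14.2% and 9.62%). On chromosome 18 the counts were 5 and 31 of 121 (4.13% and 25.6%), against 7.92% and 15.4% of all loci. Groups of neighbouring loci, given below as runs, held 8 and 7 of the chromosome 6 rises and 7 of the chromosome 18 falls. Median fold changes of classes close to 0 depend on scaling. LXLOC loci had a median of -0.04, which became positive with centring, quantile normalization and rescaling, and 402 of the 4411 rose (9.11%) and 670 fell (15.2%). The balance turned with centred libraries (546 rises, 523 falls) and after quantile normalization (560 and 495), but not with rescaling (472 and 572). Ensembl loci had a median of -0.15, with 111 rises and 328 falls of 2063 (5.38% and 15.9%).

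Of LXLOC loci that overlap no other tested locus on their strand, the largest rises in log2 fold change exceeded those of any named locus with a symbol. The largest falls did not on that scale. LXLOC_013055 (chr12:37237525-37240154, minus strand) was at 4.52 and 4.15 FPKM with vehicle and 31.5 and 33.2 FPKM with JQ1 (log2 fold change 2.76, adjusted p = 0.00443). LXLOC_047960, within 5 kb of the histone gene HIST1H2BJ, was at 0.47 FPKM in both vehicle libraries and 4.79 and 5.16 FPKM in the JQ1 libraries (2.50, adjusted p = 0.00443). LXLOC_057991, on an alternate MHC haplotype, was listed at 0 in both vehicle libraries and at 1.71 and 2.11 FPKM with JQ1. These loci were silent or nearly so with vehicle, apart from the first. Among the falls, LXLOC_035852 near the kinase gene SIK1 was at 5.28 and 5.15 FPKM with vehicle and 0.85 and 1.19 FPKM with JQ1 (-1.92, adjusted p = 0.00657). LXLOC_033243 near PARD3B was at 2.37 and 2.52 FPKM against 0.31 and 0.26 FPKM (-1.91, adjusted p = 0.00533), and LXLOC_029632 near CLIP4 at 2.59 and 1.67 FPKM against 0.16 and 0.21 FPKM (-1.92). LXLOC_039346 lies on the strand of WNT5A, a signalling ligand gene, and was at 2.24 and 2.97 FPKM against 0.13 and 0.52 FPKM (-1.94, adjusted p = 0.0178), so reads of WNT5A may be mixed in.

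Called loci also lay next to each other. Joined where they lie within 100 kb, they formed 35 runs of 5 or more, with 215 of the 1511 calls. Of these runs, 20 held falls alone, 7 rises alone and 8 both. Over all loci 23.3% were called, and 998 of the 1511 calls were falls. How many such runs would form by the spacing of the tested loci alone was not tested. Loci of a run may share reads or be pieces of 1 transcript, so their counts are not independent. The run with the most calls lay at chr7:150057551-150323163 by ACTR3C, where 13 of 15 tested loci fell, all on the minus strand, by log2 fold changes of -1.11 to -0.58. Its leading locus, LXLOC_052203, was at 2.14 and 2.11 FPKM with vehicle and 0.73 and 0.76 FPKM with JQ1. At chr13:109188149-109270922 by MYO16, 8 loci on the minus strand fell (median -1.32), with LXLOC_015522 at 7.31 and 7.44 FPKM against 2.51 and 2.45 FPKM. LXLOC_014780 on the plus strand of the same region rose, at 30.4 and 31.5 FPKM against 43.9 and 39.4 FPKM (0.42, adjusted p = 0.0423), a call lost, among other settings, without the filter on low values (0.0817) and without trend or robust fitting (0.0557).

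Rises clustered most strongly in the histone gene region of chromosome 6. At chr6:27825860-28137293, 8 loci rose (median 2.12), 7 of them with log2 fold changes between 1.82 and 2.26, and ZSCAN16-AS1 at the far end fell (-0.49). LXLOC_046445, within 5 kb of HIST1H2BO, was at 1.09 and 0.90 FPKM with vehicle and 5.99 and 5.73 FPKM with JQ1. LXLOC_046446 next to it, antisense to an olfactory receptor gene, was at 0.43 and 0.40 FPKM against 3.77 and 3.66 FPKM (2.20, adjusted p = 0.00467). All 7 had vehicle values near or under 1 FPKM. At chr17:43231705-43389199, which includes LINC00910, 7 of 8 tested loci rose (median 1.23). They were led by LXLOC_024665 from 3.35 and 3.26 FPKM to 32.1 and 29.2 FPKM (3.03, adjusted p = 0.00443). Several others of this run overlap CCDC200 on the same strand, so reads of that gene may be mixed in. At chr12:47599346-47817966, RPAP3-DT and 5 LXLOC loci beyond the other end of RPAP3 rose (median 0.89) and AC004466.2 by HDAC7 fell (-0.68), a call lost with centred libraries (0.0543), after quantile normalization (0.0655) and without the filter (0.0759). LXLOC_013141 there was at 0.94 and 0.96 FPKM against 2.95 and 3.03 FPKM. At chr6:10739578-10807344, 7 of 8 loci on the strand of TMEM14B rose by 0.46 to 0.75, and reads of TMEM14B may be mixed in.

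The other 3 runs of 7 calls held falls alone. By TCF4, a helix-loop-helix factor gene, 7 of 8 loci fell at chr18:55892908-56029186 (median -0.85), among them AC009271.1 at 3.61 and 3.31 FPKM with vehicle and 1.82 and 1.42 FPKM with JQ1. At chr3:29530942-29649719, 7 of 8 fell (median -0.92), with LXLOC_037451 at 1.28 and 1.26 FPKM against 0.38 and 0.33 FPKM. These 7 overlap the coding gene AC098650.1 on the same strand, so reads of that gene may be mixed in. Near NKAIN3 at chr8:62092669-62164979, 7 of 7 fell (median -0.69), but LXLOC_054110 passed narrowly and lost its call under each other scaling tried (0.0624 to 0.0921). Most loci of these 3 runs were near 1 FPKM with vehicle, so the falls in FPKM were small in absolute terms.

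**Figure D4:**
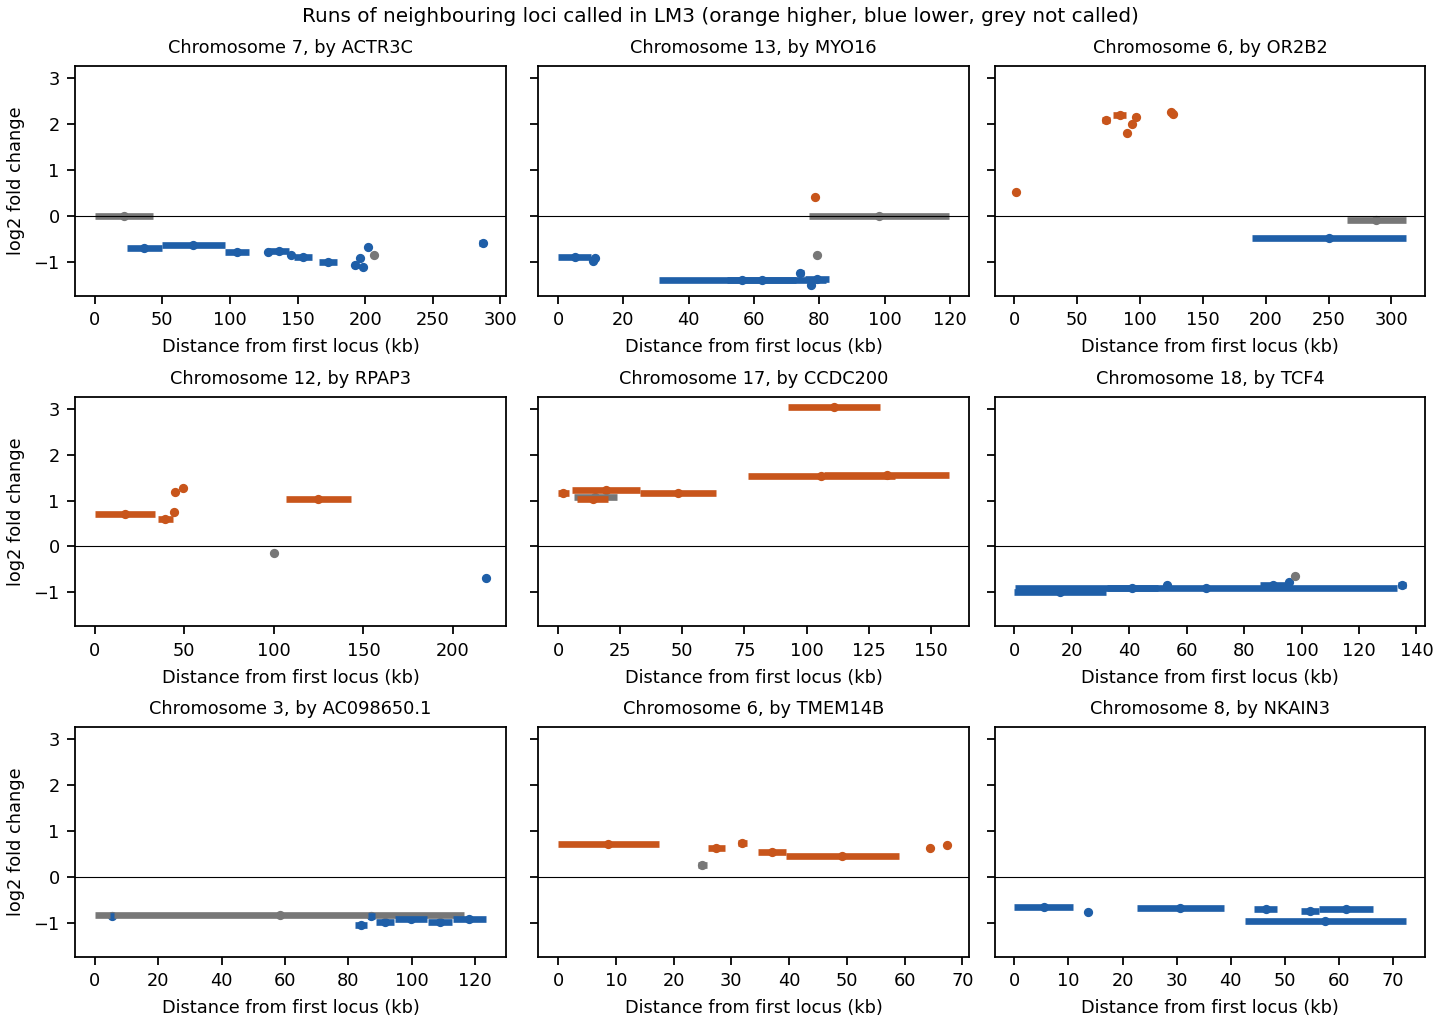
Log2 fold change of each tested locus in the 9 runs with at least 7 called loci, drawn over the span of the locus in kb from the first one, with a point at its middle (orange called higher, blue called lower, grey not called). Called loci of the run by ACTR3C lie between -1.11 and -0.58 and those of the run by CCDC200 between 1.02 and 3.03, while the runs by MYO16, OR2B2 and RPAP3 hold both directions.

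HepG2 shows where the response of LM3 differs. Of the 5035 loci tested in both lines, 420 were called higher in LM3, and 272 of these (64.8%) also in HepG2, where 546 were called higher, so that the shared loci were 49.8% of the HepG2 calls. Of 676 called lower in LM3, 438 (64.8%) were among the 644 lower in HepG2 (68% of those). Of the same 5035 loci, 10.8% were called higher and 12.8% lower in HepG2. Over all 5906 loci tested in HepG2, 25.1% were called in either direction. Across the 5035 loci, Pearson's r of the fold changes was 0.77, a description over loci that are not independent. In a limma fit of the difference over all 8 libraries, 11 loci (0.218%) passed an adjusted p of 0.05, and 604 had an unadjusted p under 0.05. PAX8-AS1 fell by more in LM3, where the log2 fold change was -2.05 against -0.64 in HepG2 (difference -1.40, SE 0.14, adjusted p = 0.0234). The HepG2 libraries had 0.80 and 0.89 FPKM with vehicle and 0.36 FPKM in both with JQ1, so the line started from a lower level. RPL26L1-AS1, which starts back to back with the ribosomal protein gene RPL26L1, was at 3.46 and 3.73 FPKM with vehicle and 1.75 and 1.79 FPKM with JQ1 in LM3, but at 1.99 FPKM in both and 2.18 and 2.33 FPKM in HepG2 (difference -0.996, adjusted p = 0.028). LXLOC_013055 rose by more in LM3 (2.76 against 1.71, difference 1.05, adjusted p = 0.028), and LINC00910 by less (1.55 against 3.09, difference -1.54, adjusted p = 0.00938). CASC19 (difference 0.86) and SNHG26 (0.81) fell in both lines, and their differences did not pass, though that of CASC19 did with centred libraries. With a single library left out, the fit called between 0 and 3 loci, and with the replicate number as a block it called 0.

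**Figure D5:**
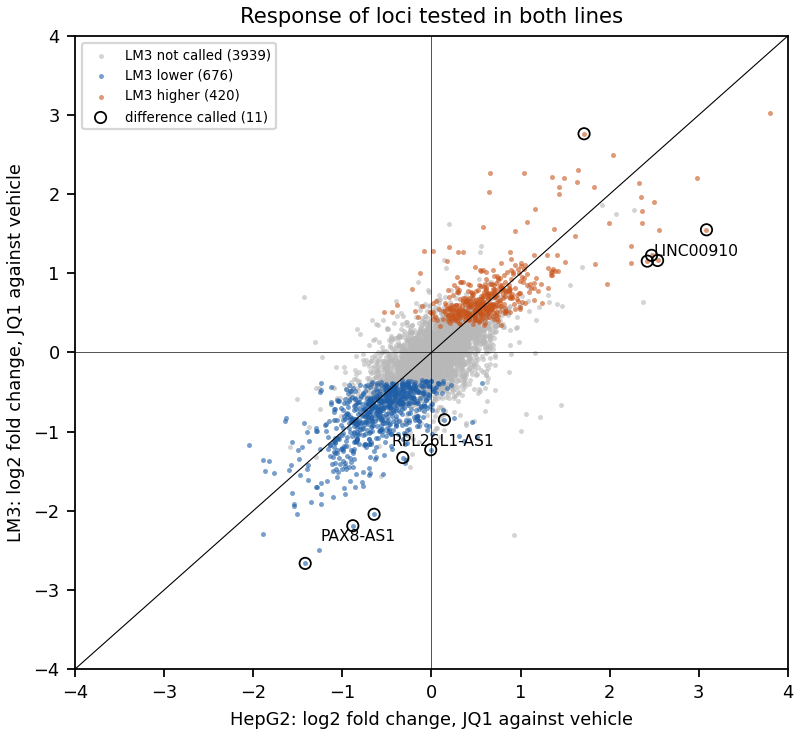
Log2 fold change with JQ1 in HepG2 (horizontal) and LM3 (vertical) for the 5035 loci tested in both lines, coloured by their LM3 call, with the line of equality and rings around the 11 loci whose difference passed. Most calls lie in the lower left and upper right, while LINC00910, PAX8-AS1 and RPL26L1-AS1 all lie below the line of equality.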

How the data were processed

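Libraries of total RNA depleted of ribosomal RNA were analysed for LM3 (2 vehicle, 2 JQ1), with HepG2 for comparison. Values are FPKM that the authors deposited per line, per the file headers. Bowtie 0.12.2, hg19 and mm8 stand in the submitters' processing notes, yet of 8453 Ensembl IDs with values found in GENCODE release 29, 100% lay on the same chromosome and strand and 83.9% had the same start on GRCh38. Counting tool, strand setting and total depth were not given in the sources used here, so counting error is unknown and overlapping, antisense and near-identical loci are uncertain.

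Loci with dashes (7692) were left out, as were means under 0.5 FPKM. The highest mean left out was 0.4975; 285 loci lay between 0.5 and 0.55 and 236 between 0.45 and 0.5. log2(FPKM + 0.5) was compared in limma 3.58.1 (R 4.3.3; trend, robust, two-sided, Benjamini-Hochberg over 6474 loci, threshold 0.05), a scale that understates changes of low loci. The steps were tested on simulated data. Tables used NumPy 2.4.6 and pandas 2.3.3 under Python 3.11.15, and figures matplotlib 3.10.9. Alternatives were pseudocounts, filters, scalings, a replicate block, overlapping loci removed, libraries left out and all 8 libraries in 1 fit. The last with single LM3 libraries left out was chosen after seeing the data.

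Named were called loci with a symbol not based on a clone, groups that did not overlap and a higher group of 1 FPKM or more, the 14 largest and 8 most abundant per direction, up to 4 called members per list (2 if none), 4 LXLOC loci per direction, and H19. The 9 runs with at least 7 calls were described, since 6 tied at 7 where 5 runs had been planned. GAS5, TUG1, NORAD, RMRP, SLC16A1-AS1, LINC01503, MIR17HG, MIR1915HG, MIRLET7BHG, IRF1-AS1, NRAV, HCP5, HOXA11-AS, HOTAIR, HEIH, MCM3AP-AS1, MIR503HG and LINC00926 were added after their values were seen. Members and lists were chosen with earlier results of these data known.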

Additional observations from a re-analysis of the deposited data

Results flagged for a closer look

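In all, 11 loci passed the limma test of the difference in JQ1 response between LM3 and HepG2 (adjusted p of 0.05), given as the LM3 minus the HepG2 log2 fold change. Chromosome 17 holds 4 that rose by less in LM3, namely LINC00910 (-1.54), LXLOC_024647 (-1.38), LXLOC_024656 (-1.27) and LXLOC_024649 (-1.24). All 4 lie in the same run, so they are not independent. The LXLOC loci among them overlap the coding gene CCDC200 on the same strand, so its reads may be mixed in. LXLOC_024649 was at 16.8 and 15.6 FPKM with vehicle and 39.5 and 37.5 FPKM with JQ1 in LM3. In HepG2 it was at 22.6 and 22.7 FPKM against 118.97 and 137.3 FPKM. PAX8-AS1 (-1.40) and LXLOC_030447 (-1.31), which overlap each other, fell by more in LM3. LXLOC_019865, antisense to the growth factor receptor gene IGF1R, had a difference of -1.25, with 4.67 and 4.68 FPKM against 0.32 and 0.31 FPKM in LM3 and 1.30 and 1.28 FPKM against 0.18 and 0.16 FPKM in HepG2. LXLOC_034140 by TSHZ2 (-1.22), LXLOC_049444 near CYCS (-1.01) and RPL26L1-AS1 (-0.996) were lower with JQ1 in LM3 and not called in HepG2. LXLOC_013055 on chromosome 12 rose by more in LM3 (1.05). With the replicate number as a block, 0 of the 11 were called.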

How the results depend on the processing

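The count of 1511 calls (513 higher, 998 lower) stayed within 1.5 times under pseudocounts of 0.1 and 1, a filter at 1 FPKM, centring, quantile normalization, rescaling, removal of overlapping loci and no trend or robust fitting. Without a filter on low values it was 857 (251 higher, 606 lower) among all loci with values, and with all 8 libraries in 1 fit 807 loci were higher. Without any 1 LM3 library limma made 0 calls, in either direction, with unadjusted p under 0.05 for 1747 and 1605 loci without vehicle 1 and 2 and 2263 and 2366 without JQ1 1 and 2. These are fits with fewer samples. In 1 fit over both lines the counts without an LM3 library were 1328 to 1828. The labels' replicate numbers name no shared culture, and the correlation of same-numbered deviations was 0.135 across 6474 loci. It rests on only 2 pairs of libraries. With a replicate block 1215 loci were called, 1106 of them among the 1511, and 0 of the 11 differences between lines, where 20 were called with centred libraries, 19 with a pseudocount of 1 and 0 to 3 with a library left out. Of the loci named, H19 changed sign, to -0.243 after quantile normalization, and spanned -0.0832 to 0.0849 with a library left out (-0.08 without vehicle 1). The cause was not tested. With the block MALAT1 (adjusted p = 0.0524), LXLOC_014780 (0.0646), and LXLOC_054109 (0.0526) and LXLOC_054110 (0.0587) by NKAIN3 were among the calls lost. Without the filter 43 named results lost their call, among them 5 of 7 calls of the run by TMEM14B and 4 of 7 by NKAIN3. FPKM alone give no depth, so counting error at low loci could not be separated from the spread between 2 libraries.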

Other observations

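A run chosen after its values were seen lay by HEXIM1 and HEXIM2, whose proteins hold the elongation factor P-TEFb inactive. At chr17:45051877-45222222, 6 of 8 tested loci fell in LM3. AC142472.1, which starts back to back with HEXIM1, was at 0.87 and 0.88 FPKM with vehicle and 0.37 and 0.26 FPKM with JQ1 (log2 fold change -0.76). LXLOC_023240, within 5 kb of HEXIM2, was at 1.44 and 1.48 FPKM against 0.15 and 0.29 FPKM (-1.45), and FMNL1-DT at 2.57 and 3.18 FPKM against 1.41 and 1.30 FPKM (-0.86). LXLOC_024726, divergent from HEXIM2, was not called (-0.33). The coding genes themselves have no values in the table.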
